A study of Mus musculus with 16 samples.

Results

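The 9 complement genes described here are the C1q chains C1qa, C1qb and C1qc, the components C4b, C3 and Cfb, and the regulators Serping1, Cd55 and Cd59a. They were taken by gene name, as 9 of the 24946 gene names in the deposited tables, and their transcript levels were read in all 16 libraries. The libraries were made from lymphatic endothelial cells (LECs) sorted as live CD45- CD31+ podoplanin+ cells from popliteal and brachial lymph nodes of mice. There were 4 groups of 4 libraries: Clever-1 knockout (KO, lacking Stab1, the gene of the scavenger receptor Clever-1) 1 day after footpad injection of ovalbumin (OVA) in Freund's adjuvant (KO inflamed), wild type (WT) given the same injection (WT inflamed), uninjected KO (KO steady state) and uninjected WT (WT steady state). The labels give the strain as C57BL/6, whereas the study's methods give a mixed C57BL/6N and 129SvJ background, young mice and both sexes; the labels name complete Freund's adjuvant and the methods incomplete. The deletion is constitutive and not restricted to LECs, both inflamed groups received antigen and adjuvant together with no adjuvant-only group, and the study states for its marker plots that a data point stands for 2 mice.

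Complement is a cascade of plasma proteins that tags particles and immune complexes for uptake. In the classical pathway the recognition protein C1q, built of A, B and C chains, activates serine proteases that cleave C4 and C2, and the resulting convertase cleaves C3. In the alternative pathway factor B (Cfb) forms the convertase with C3b. Host cells limit the cascade with C1 inhibitor (Serping1), which blocks the C1 proteases, with decay-accelerating factor (Cd55), which takes convertases apart, and with Cd59, which blocks assembly of the membrane pore. C1q is best known as a product of tissue macrophages and dendritic cells, and C3 and factor B are made in many tissues besides the liver.

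The sorted cells carried LEC transcripts: Prox1 lay between 82.5 and 104 TPM (a transcript level scaled for transcript length and to a fixed library total) in KO inflamed, between 16.8 and 95.3 TPM in WT inflamed, between 53.5 and 83.3 TPM in KO steady state and between 54.4 and 86.8 TPM in WT steady state. Ccl21a, another LEC marker, is listed at 0 in all 16 libraries. Stab1 reached at most 8.90 TPM in any KO library, against at least 193 TPM in any WT library. WT inflamed library 2 stood apart from its group: 10903 genes reached 1 TPM in it, against 11898 to 12133 in the other libraries, and its log2 profile correlated at 0.889 with the mean of its group, against 0.961 or more elsewhere. The median standard deviation (SD) of a gene over WT inflamed was 0.49 on the log2 scale with that library and 0.156 without it, against 0.14 to 0.185 in the other groups. Tests that involve WT inflamed were therefore less sensitive. For the 9 complement genes, values are given with and without that library wherever it changes a call or a direction.

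The medians of the 9 genes spanned 3 orders of magnitude in the inflamed groups and less at steady state. Cfb, Cd55, C3, Serping1, Cd59a and C1qb kept this order of medians in every group. Since TPM is a level per length, the genes can be set beside each other. Cfb was the most abundant, with medians of 4165 TPM in KO inflamed, 4153 TPM in WT inflamed, 4623 TPM in KO steady state and 4812 TPM in WT steady state, which placed it between rank 15 and rank 17 among all genes. Cd55 and C3 followed at medians between 1120.04 and 1709 TPM, with overlapping ranges in each group, so that the order of these neighbours was not resolved. Serping1 came next (medians of 611 to 1219.7 TPM) and overlapped C3 in WT inflamed alone. Cd59a had medians of 135 to 211 TPM and C1qb of 34.6 to 72.6 TPM, and C1qb overlapped the next gene, C1qc, only in WT steady state. C4b, C1qc and C1qa were the least abundant: their ranges overlapped at steady state, and in both inflamed groups C1qc and C1qa were at the bottom with medians of 2.87 to 4.42 TPM. C1qc and C1qa overlapped in all 4 groups, and C4b and C1qc overlapped in WT inflamed but not in KO inflamed.

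**Figure D1:**
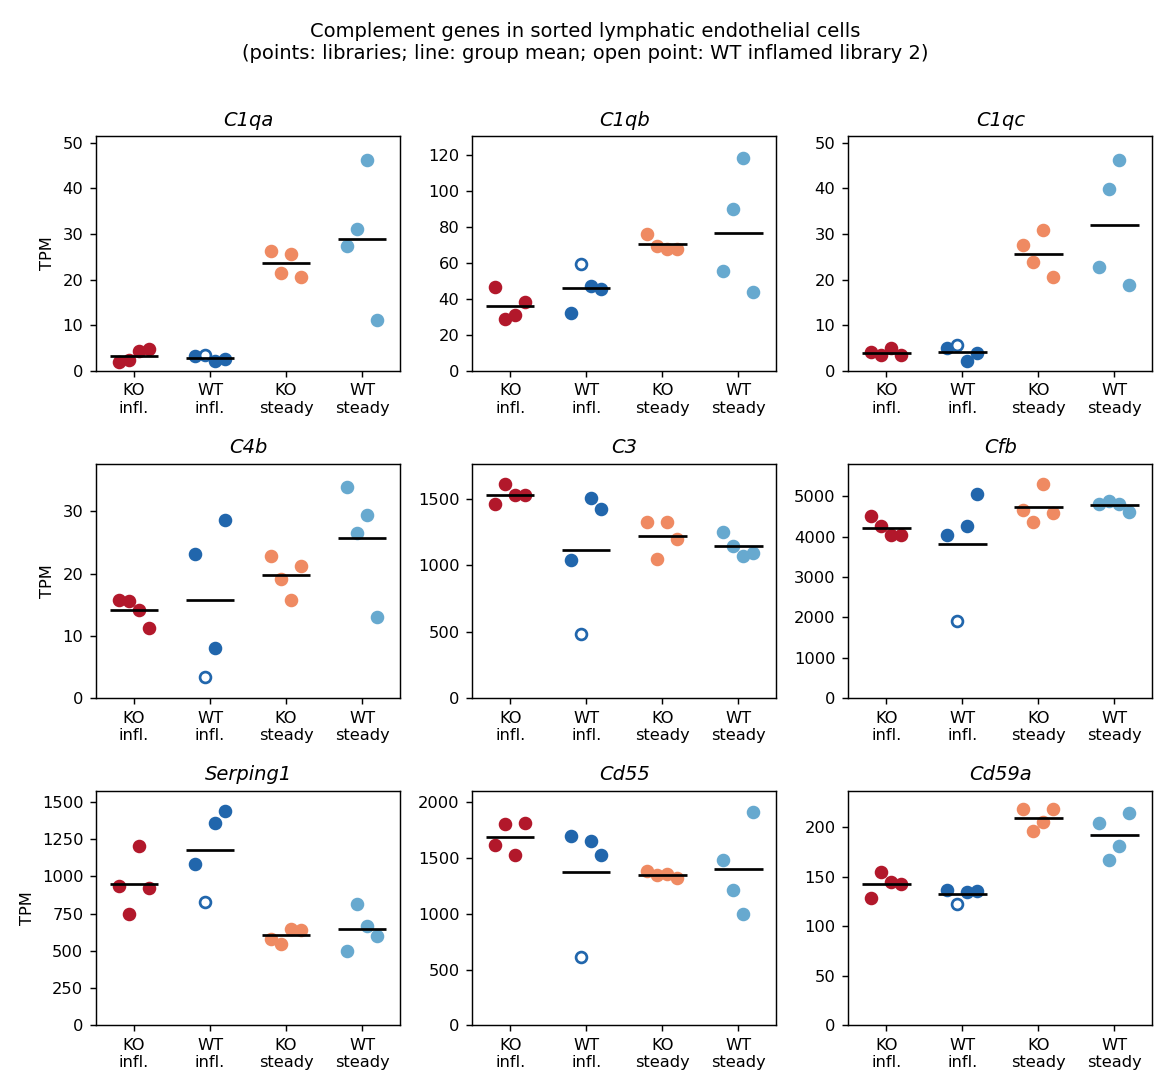
Transcript levels of the 9 complement genes in each library (TPM, vertical axes from 0), by group, KO inflamed, WT inflamed, KO steady state and WT steady state from left to right; lines are group means and the open point is WT inflamed library 2. C1qa and C1qc in the inflamed libraries lie at 5.64 TPM or below, under every steady-state library, whereas Cfb, C3, Cd55 and C4b are pulled down in WT inflamed library 2.

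C1qa, C1qb and C1qc lie next to each other on chromosome 4 on the minus strand, at 136895916 to 136898844 (C1qa), 136889801 to 136892936 (C1qc) and 136880126 to 136886200 (C1qb) in GRCm38 (mm10). The 250 bases before the RefSeq start sites of C1qb and C1qc are shown, as neighbouring genes of which C1qc fell in both genotypes after OVA and C1qb did not pass. They are read 5′ to 3′ on the minus strand of GRCm38.p6, chr4:136886201-136886450 for C1qb and chr4:136892915-136893164 for C1qc, with overlapping matches to a loose NF-kB motif (GGGNNNNNCC, either strand) in capitals.
C1qb: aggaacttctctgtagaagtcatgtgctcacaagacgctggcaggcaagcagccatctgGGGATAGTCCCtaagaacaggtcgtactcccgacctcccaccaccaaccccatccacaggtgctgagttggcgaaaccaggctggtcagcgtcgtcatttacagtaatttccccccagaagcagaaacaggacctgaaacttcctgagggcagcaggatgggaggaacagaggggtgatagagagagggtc
C1qc: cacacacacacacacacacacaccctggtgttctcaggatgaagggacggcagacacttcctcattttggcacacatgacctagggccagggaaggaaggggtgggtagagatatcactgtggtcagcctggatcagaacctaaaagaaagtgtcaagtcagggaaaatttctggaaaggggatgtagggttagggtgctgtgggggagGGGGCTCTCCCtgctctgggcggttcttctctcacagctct
The C1qb match ran from base -191 to base -181 and the C1qc match from base -41 to base -31 before the start. The motif is common: 50.8% of the 32851 mouse promoter windows in the table (250 bases before to 50 after a start) held it. Neither window held the interferon-gamma activated site TTCNNNGAA (8.3% of windows) or the interferon-stimulated element GAAANNGAAA (3.44% of windows). A match is a run of letters and shows no binding. RefSeq windows were at hand for 5 of the 9 genes (C1qb, C1qc, C3, Cd55 and Cd59a).

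C1qa and C1qc fell in the LEC preparations of both genotypes 1 day after OVA, and the difference of C1qb was smaller. C1qa, the A chain, had 1.82, 2.32, 4.38 and 4.67 TPM in KO inflamed, against 26.3, 21.5, 25.7 and 20.6 TPM in KO steady state. It had 3.15, 3.40, 2.14 and 2.59 TPM in WT inflamed, against 27.3, 31.0, 46.2 and 11.2 TPM in WT steady state. All inflamed libraries lay below all steady-state libraries in both genotypes, and the widest spread was among the WT steady-state libraries. On the log2(TPM + 1) scale, C1qa fell by 2.57 ± 0.22 in KO (standard error, SE; limma, adjusted p = 7.83e-06) and by 2.83 ± 0.38 in WT (adjusted p = 0.00397). The exact permutation p was 0.0286 in each genotype, the smallest that 4 libraries against 4 allow.

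C1qc, the C chain, followed C1qa closely. Its levels were 4.06, 3.56, 4.97 and 3.36 TPM in KO inflamed, against 27.5, 24.0, 30.9 and 20.5 TPM in KO steady state. In WT inflamed they were 4.93, 5.64, 2.07 and 3.92 TPM, against 22.7, 39.8, 46.3 and 18.9 TPM in WT steady state. Again no inflamed library reached a steady-state library. C1qc fell by 2.42 ± 0.15 in KO (adjusted p = 1.42e-06) and by 2.65 ± 0.36 in WT (adjusted p = 0.0038). Without WT inflamed library 2 the differences in WT were -2.90 for C1qa and -2.79 for C1qc, with adjusted p of 0.000226 and 0.000126.

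C1qb, the B chain, had 46.5, 29.0, 31.1 and 38.2 TPM in KO inflamed, against 76.2, 69.6, 68.0 and 67.5 TPM in KO steady state. All KO inflamed libraries were below all KO steady-state libraries. The log2 difference was -0.96 ± 0.13 (adjusted p = 0.000139), just short of the fold threshold of 1. It passed after each library was rescaled by its median ratio to the average library (-1.20), after quantile normalization (-1.20) and without KO inflamed library 1 (-1.09). In WT the libraries overlapped: C1qb had 32.3, 59.5, 46.9 and 45.4 TPM in WT inflamed, against 55.2, 90.1, 118 and 43.7 TPM in WT steady state. The log2 difference in WT was -0.65 ± 0.32 (adjusted p = 0.361).

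The ratio between the chains was compared within each library. C1qb was 25.5, 12.5, 7.09 and 8.18 times as abundant as C1qa in KO inflamed, against 2.89, 3.24, 2.65 and 3.27 times in KO steady state. In WT inflamed the C1qb to C1qa ratio was 10.2, 17.5, 21.9 and 17.5, against 2.02, 2.91, 2.56 and 3.91 in WT steady state. The ratio was higher in every inflamed library than in every steady-state library of its genotype (log2 difference of 1.96 in KO and 2.55 in WT). C1qb to C1qc behaved likewise, with 6.24 to 11.5 in KO inflamed, against 2.20 to 3.29 in KO steady state, and 6.55 to 22.7 in WT inflamed, against 2.26 to 2.56 in WT steady state. The ratio of C1qc to C1qa overlapped between inflamed and steady-state libraries, at 0.72 to 2.23 in KO inflamed, against 0.995 to 1.20 in KO steady state, and at 0.966 to 1.66 in WT inflamed, against 0.833 to 1.70 in WT steady state. These ratios were looked at after the levels were seen. The exact permutation p of each of the 4 shifts was 0.0286, the smallest that 4 libraries against 4 allow. Benjamini-Hochberg adjustment over 12 ratio tests gave 0.0857, so none passed. With the other ratio tests as they were, shifts of any size would have had this adjusted p, so the adjusted test could not decide. Ratios within a library do not depend on a single scaling factor per library, and they were not computed after quantile normalization.

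**Figure D2:**
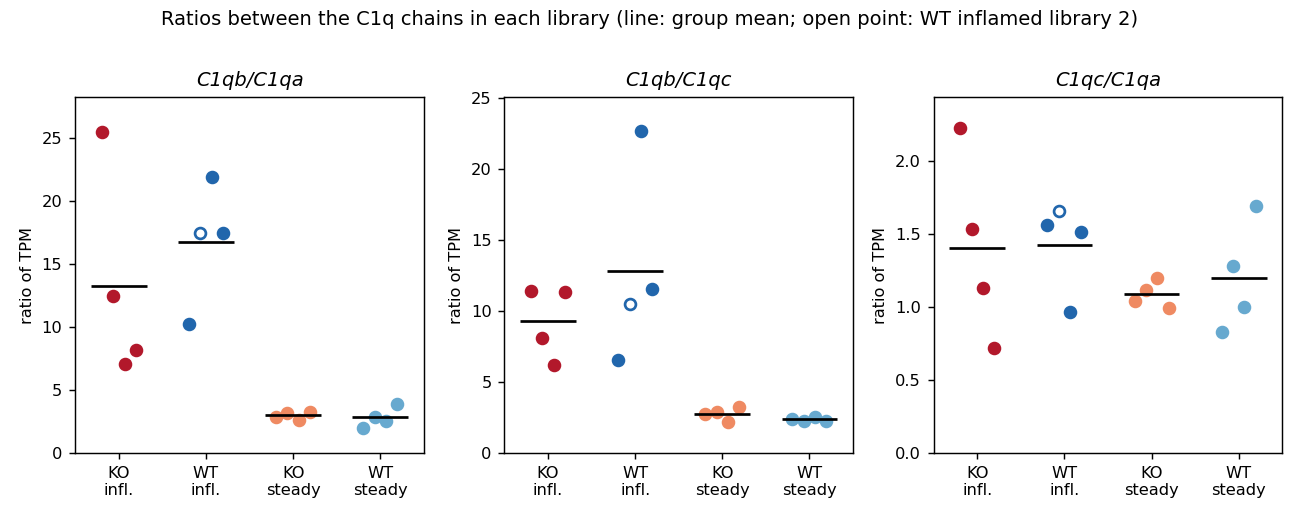
Ratios of TPM between the C1q chains in each library (vertical axes from 0), by group; lines are group means and the open point is WT inflamed library 2. C1qb to C1qa is 7.09 or more in every inflamed library and 3.91 or less in every steady-state library, and C1qc to C1qa overlaps between them.

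Macrophage markers moved with the C1q chains, although CD45+ cells were removed before sorting. Of a list of 15 macrophage markers, 12 were tested in each genotype. Of these, 7 fell in KO (3.06% over all genes) and 6 in WT (1.97% over all genes), with none higher past the threshold. Without WT inflamed library 2, 7 fell in WT (355 of 11936 over all genes). By adjusted p alone 3 of 12 were higher and 7 lower in KO inflamed, where 60.3% of all genes passed by adjusted p in either direction. Those higher were Mrc1 by 0.85 (adjusted p = 9.87e-05), Cd5l by 0.83 (adjusted p = 0.0114) and Mertk by 0.61 (adjusted p = 0.0199) on the log2 scale. Those that fell included Csf1r, the receptor for macrophage colony-stimulating factor, with 0.637 to 2.28 TPM in KO inflamed, against 7.86 to 16.7 TPM in KO steady state, and 0.264 to 2.05 TPM in WT inflamed, against 8.86 to 25.3 TPM in WT steady state. Timd4, a phosphatidylserine receptor of resident macrophages, had 5.32 to 8.90 TPM in KO inflamed, against 43.6 to 51.9 TPM in KO steady state, and 1.39 to 6.21 TPM in WT inflamed, against 24.9 to 67.3 TPM in WT steady state. Both fell in each genotype. Adgre1, which encodes F4/80, and Cd163 were low throughout, with at most 3.32 TPM for Adgre1 and 0.184 TPM for Cd163. No marker of the list was at 0 in all libraries of a group.

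Lymph node LECs also express the scavenger receptors Marco and Mrc1, and Marco had 863 to 6206 TPM over the libraries, so the sum of the list is given without both. The counts of macrophage markers given above include both, and no count was made without them. The other 13 markers summed to 128 to 185 TPM in KO inflamed, against 384 to 529 TPM in KO steady state. Their sum was 101 to 128 TPM in WT inflamed, against 409 to 1066 TPM in WT steady state. Lyz2, a lysozyme gene that neutrophils and monocytes also express, made up much of it, at 70.8 to 110 TPM in KO inflamed, against 227 to 379 TPM in KO steady state, and at 41.6 to 63.0 TPM in WT inflamed, against 282 to 845 TPM in WT steady state. The 12 markers left without Lyz2 summed to 56.7 to 74.4 TPM in KO inflamed, against 134 to 183 TPM in KO steady state, and to 47.2 to 65.0 TPM in WT inflamed, against 127 to 220 TPM in WT steady state. With or without Lyz2, the inflamed and steady-state sums did not overlap. By either sum, the WT steady-state library with the highest value, library 3, also had the highest C1qa, C1qb and C1qc, and the library with the lowest, library 4, had the lowest C1q levels. This order did not hold in every group. In KO steady state library 1 had the lowest sum of 13 markers (384 TPM) and the highest C1qa and C1qb, although without Lyz2 the lowest was library 4 (134 TPM). In WT inflamed library 1 had the highest value by either sum (128 and 65.0 TPM) and the lowest C1qb (32.3 TPM). Markers of other CD45+ cells moved too, and the share of all genes that fell was again 3.06% in KO and 1.97% in WT. Of 5 T cell markers tested, 4 fell in KO and 1 in WT, while the 6 with a row summed to 43.9 to 60.5 TPM in KO inflamed, against 42.7 to 58.2 TPM in KO steady state, and to 54.7 to 69.0 TPM in WT inflamed, against 40.1 to 67.5 TPM in WT steady state. Of 2 neutrophil markers tested, both fell in KO and neither passed in WT, and the 8 listed summed to 0.534 to 16.6 TPM in KO inflamed, against 27.8 to 68.9 TPM in KO steady state, and to 1.48 to 23.1 TPM in WT inflamed, against 3.87 to 37.7 TPM in WT steady state. Of 3 dendritic cell markers tested, 1 rose in each genotype (780 of 12161 over all genes in KO and 239 of 12031 in WT). The part of RNA from these cells in the C1q values was not tested, and in bulk samples fewer cells of a type and less RNA per cell cannot be told apart.

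**Figure D3:**
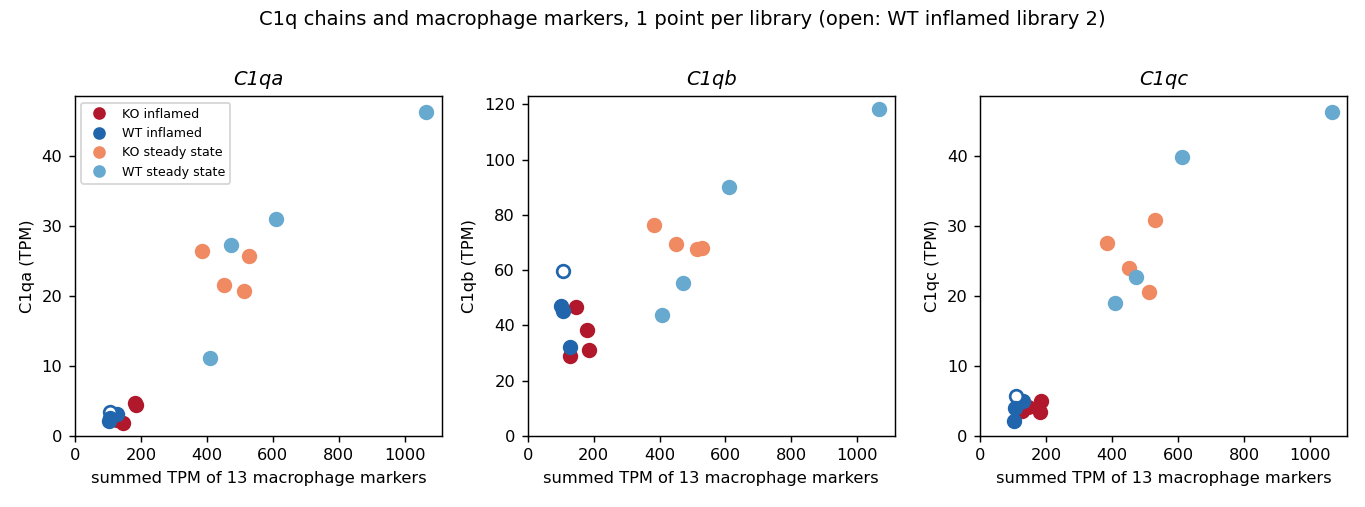
TPM of C1qa, C1qb and C1qc in each library (vertical axes) against the summed TPM of 13 macrophage markers (horizontal axes), with 1 point per library coloured by group and WT inflamed library 2 open. The inflamed libraries lie at sums of 185 TPM or less and the steady-state libraries at 384 TPM or more; C1qb in inflamed libraries, at 29.0 to 59.5 TPM, keeps further from 0 than C1qa and C1qc.

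C4b, the classical pathway component that is cleaved after C1 activation, did not pass in any comparison. It had 15.8, 15.6, 14.1 and 11.3 TPM in KO inflamed, against 22.8, 19.2, 15.7 and 21.2 TPM in KO steady state. In WT inflamed it had 23.2, 3.32, 8.04 and 28.6 TPM, against 34.0, 26.6, 29.5 and 13 TPM in WT steady state. The groups overlapped in both genotypes, and WT inflamed spread most. The log2 difference was -0.45 ± 0.14 in KO (adjusted p = 0.0174) and -0.97 ± 0.59 in WT (adjusted p = 0.499). C4b lies on chromosome 17 (34728139 to 34743902), and its near-identical copy C4a was listed at 0.43 TPM or less, so how reads were divided between the copies is uncertain.

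C3, the central component, had 1461, 1607, 1528 and 1526 TPM in KO inflamed, against 1325, 1045, 1322 and 1196 TPM in KO steady state. In WT inflamed it had 1041, 483, 1507 and 1426 TPM, against 1251, 1147, 1072 and 1093 TPM in WT steady state. The KO libraries did not overlap, and those of WT did, with the lowest value in WT inflamed library 2. The log2 difference was 0.33 ± 0.08 in KO (adjusted p = 0.00382), below the fold threshold, and -0.16 ± 0.32 in WT (adjusted p = 0.93), or 0.20 without WT inflamed library 2 (adjusted p = 0.214). C3 lies on chromosome 17 at 57203967 to 57228136.

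Cfb, the alternative pathway serine protease, stayed the most abundant of the 9. It had 4509, 4274, 4047 and 4056 TPM in KO inflamed, against 4652, 4368, 5312 and 4593 TPM in KO steady state. WT inflamed libraries had 4033, 1922, 4273 and 5052 TPM, against 4809, 4885, 4816 and 4623 TPM in WT steady state. Both pairs of groups overlapped. The log2 difference was -0.16 ± 0.07 in KO (adjusted p = 0.0589) and -0.41 ± 0.27 in WT (adjusted p = 0.544), or -0.11 without WT inflamed library 2. Cfb (chromosome 17, 34856374 to 34862514) is adjacent to C2 (34862602 to 34882100), whose product is the classical pathway counterpart of factor B. C2 had 499 to 635 TPM in KO inflamed, against 669.5 to 797 TPM in KO steady state, and 359 to 733 TPM in WT inflamed, against 657 to 805 TPM in WT steady state.

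Serping1, which encodes C1 inhibitor, was the member with the largest positive difference after OVA. It had 938, 747, 1201 and 920.1 TPM in KO inflamed, against 579, 543, 649.9 and 643 TPM in KO steady state. In WT inflamed it had 1080.3, 827, 1359 and 1436 TPM, against 496, 816, 668 and 601 TPM in WT steady state. All inflamed libraries were above all steady-state libraries in both genotypes. The log2 difference was 0.64 ± 0.12 in KO (adjusted p = 0.00126) and 0.86 ± 0.22 in WT (adjusted p = 0.0528). Neither met both thresholds, but without WT inflamed library 2 Serping1 rose in WT by 1.01 ± 0.16 (adjusted p = 0.000724). With median-ratio rescaling and that library left out the difference was 0.83 ± 0.17 (adjusted p = 0.0044), and it passed in WT in 1 of 19 alternatives. Serping1 lies on chromosome 2 at 84765360 to 84775444. Fibroblastic reticular cells are another stromal type of the node, and the summed level of their 11 markers was 666 to 1060 TPM in KO inflamed, against 317 to 525 TPM in KO steady state, and 382 to 1413 TPM in WT inflamed, against 477 to 616 TPM in WT steady state. Of 10 tested, 3 rose in KO (780 of 12161 over all genes) and 1 in WT (239 of 12031). Without WT inflamed library 2, 4 of them rose in WT (697 of 11936 over all genes). None of the 11 was at 0 in all libraries of a group. Another list held 10 markers of blood endothelium and high endothelial venules. Their sum was 3460 to 5449 TPM in KO inflamed, against 6503 to 7680 TPM in KO steady state. In WT it was 3041 to 4908 TPM inflamed, against 3779 to 4400 TPM at steady state. All 10 were tested: 3 fell in KO (372 of 12161 over all genes), and none passed in WT (476 of 12031 over all genes). Without WT inflamed library 2, 2 rose and 1 fell in WT (697 higher and 355 lower of 11936 over all genes). At steady state 3 were higher in KO than in WT (52 of 12058 over all genes). The part of either list in the values of the complement genes was not tested.

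The 2 membrane regulators differed in direction in KO. Cd55 had 1612, 1807, 1524 and 1817 TPM in KO inflamed, against 1382, 1351, 1353 and 1319 TPM in KO steady state. In WT inflamed it had 1699.9, 613, 1647 and 1525 TPM, against 1477, 1209, 995 and 1914 TPM in WT steady state. The KO libraries did not overlap, and the WT libraries did. The log2 difference of Cd55 was 0.32 ± 0.06 in KO (adjusted p = 0.00159) and -0.09 ± 0.34 in WT (adjusted p = 0.97), or 0.26 without WT inflamed library 2 (adjusted p = 0.279). Cd59a had 129, 155, 145 and 142 TPM in KO inflamed, against 218, 196, 205 and 218 TPM in KO steady state. In WT inflamed it had 136, 122, 135 and 136 TPM, against 204, 167, 181 and 214 TPM in WT steady state. Every inflamed library was below every steady-state library in both genotypes. The log2 difference of Cd59a was -0.55 ± 0.07 in KO (adjusted p = 8.03e-05) and -0.53 ± 0.14 in WT (adjusted p = 0.0587), neither past the fold threshold. Cd55 (chromosome 1, 130429798 to 130465009) and Cd59a (chromosome 2, 104095753 to 104115410) each have a neighbouring copy, Cd55b and Cd59b, which reached at most 6.48 and 1.37 TPM, and the division of reads between copies is uncertain.

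**Figure D4:**
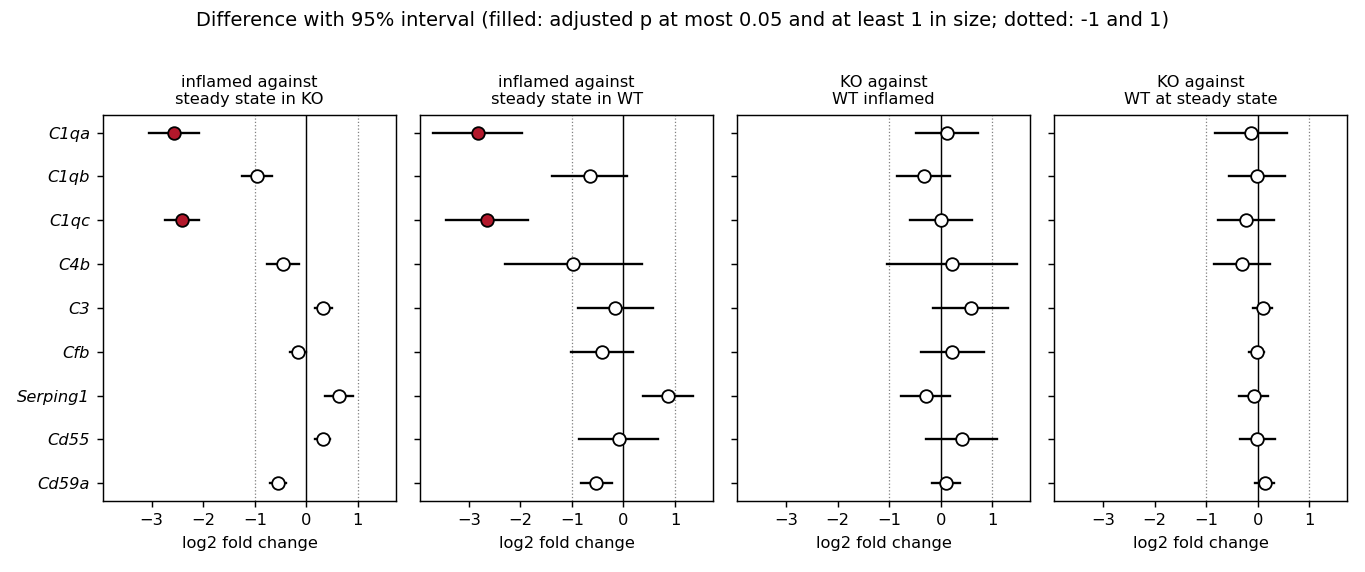
Log2 difference (horizontal axes, log2(TPM + 1) scale) of each of the 9 genes with its 95% interval in 4 comparisons, inflamed against steady state in KO and in WT, and KO against WT when inflamed and at steady state; filled points passed both thresholds and dotted lines mark -1 and 1. C1qa and C1qc passed in both OVA comparisons (-2.57 and -2.42 in KO, -2.83 and -2.65 in WT) and no gene passed between the genotypes.

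A gene passed where its Benjamini-Hochberg adjusted p over all tested genes was at most 0.05 and its log2 difference at least 1 in size. Inflamed against steady state in KO, 2 of the 9 passed, both lower, against 9.47% of 12161 tested genes in either direction and 3.06% lower. By adjusted p alone the count in KO was 8 of 9, against 60.3% of all genes, and 7 of 9 had no overlap of libraries, against 54.1% of all genes. In WT the same 2 passed, against 3.96% of 12031 tested genes in either direction and 1.97% lower. By adjusted p alone no further gene was added in WT (5.4% of all genes), and 4 of 9 had no overlap of libraries, against 14.1% of all genes. The median log2 difference of the 9 was -0.45 in KO, where that of all tested genes was 0.24, and -0.53 in WT, where that of all tested genes was -0.03. Without WT inflamed library 2 the count in WT by adjusted p alone was 4 of 9, with Cd59a and Serping1 added, against 42.1% of all genes, and the median of all tested genes was 0.17.

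The 0.24 shift of all genes in KO bears on the small differences. After median-ratio rescaling, which brings it to 0.02, the difference in KO was 0.08 for C3 (adjusted p = 0.364), 0.07 for Cd55 (adjusted p = 0.401), 0.39 for Serping1 (adjusted p = 0.043), -0.41 for Cfb (adjusted p = 0.00116) and -0.80 for Cd59a (adjusted p = 2.55e-05). Under quantile normalization C3 and Cd55 were at 0.45 and 0.42 and Cfb at -0.04. Thus the sizes of the C3, Cd55 and Cfb differences in KO depended on the scaling, although no direction did. C1qa and C1qc still passed under median-ratio rescaling, at -2.77 and -2.63 in KO. The summed level of 12 LEC markers also moved, at 6312 to 7215 TPM in KO inflamed, against 2938 to 3372 TPM in KO steady state, and 4 of 11 tested rose in KO (780 of 12161 over all genes). It was 2497 to 6368 TPM in WT inflamed, against 2949 to 3691 TPM in WT steady state, and none passed in WT. The lowest of these was WT inflamed library 2, without which the WT inflamed sum was 5481 to 6368 TPM and 3 of 11 LEC markers rose in WT (697 of 11936 over all genes). Its part in the differences of the complement genes was not tested.

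Between the genotypes, no member passed in either state. At steady state 0 of 9 passed in KO against WT, where 0.821% of 12058 tested genes passed, and 0 of 9 passed by adjusted p alone (1.81% of all genes). None of the 9 had an unadjusted p of 0.05 or less, against 1407 of the 12058 tested genes (limma). C1qa averaged 23.5 ± 2.89 TPM in KO steady state and 28.9 ± 14.4 TPM in WT steady state (SD, n = 4 each), with a 95% interval of the log2 difference from -0.84 to 0.56. Cfb averaged 4731 ± 406 TPM in KO steady state and 4783 ± 112 TPM in WT steady state, with an interval from -0.17 to 0.13. The lowest adjusted p at steady state was that of Cd59a, at 0.633, with a difference of 0.13 and an interval from -0.06 to 0.32. C4b had the largest steady-state difference, at -0.30, with an interval from -0.84 to 0.24. The intervals of C3, Cfb, Cd55, Cd59a and Serping1 thus all lay within 0.36 of 0 on the log2 scale, and those of the C1q chains and C4b were wider.

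In inflamed mice 0 of 9 passed between KO and WT, where 0.316% of 12030 tested genes passed. Of the 9, 0 had an unadjusted p of 0.05 or less, against 513 of the 12030 tested genes (limma). C3 averaged 1530.4 ± 59.7 TPM in KO inflamed and 1114 ± 467 TPM in WT inflamed, and the log2 difference was 0.58 with an interval from -0.15 to 1.32 (adjusted p = 0.717). C1qa averaged 3.30 ± 1.44 TPM in KO inflamed and 2.82 ± 0.566 TPM in WT inflamed, with an interval from -0.48 to 0.72. Serping1 averaged 951 ± 188 TPM in KO inflamed and 1176 ± 278 TPM in WT inflamed, with an interval from -0.77 to 0.18. The widest interval was that of C4b, from -1.04 to 1.48. Without WT inflamed library 2 the differences of C3 and Serping1 were 0.23 and -0.45, and those of C4b and Cfb turned to -0.31 and -0.07, against 0.22 and 0.23 with it. The median log2 difference of all tested genes was 0.20 here, and 7 of the 9 had a positive difference. Without WT inflamed library 2 that median was 0.02 and 5 of the 9 were positive, and under median-ratio rescaling 3 of the 9 were.

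Whether OVA acted differently in KO and WT was tested as an interaction over all 16 libraries. None of the 9 genes passed or had an unadjusted p of 0.05 or less, and none of 12684 tested genes passed (0.0%; limma, 542 genes at an unadjusted p of 0.05 or less, and 0 to 11 genes past both thresholds under other settings). The largest interaction among the members was 0.52 for C4b, with an interval from -0.87 to 1.92, and that of C1qa was 0.26, with an interval from -0.74 to 1.25. Without WT inflamed library 2 the interaction was -0.004 for C4b, -0.05 for Cfb and 0.33 for C1qa. Of the 9 genes, 6 had a positive interaction with that library and 4 without it. A difference between the genotypes in the response of these genes was not detectable with this spread.

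Beyond the 9 genes, 49 other complement genes were listed, of which 47 had a row and 23 were tested at steady state. In KO against WT 0 of 23 passed at steady state (0.821% of all tested genes). Of the 23, 3 had an unadjusted p of 0.05 or less (limma), as did 1407 of 12058 tested genes. In inflamed mice 0 of 21 passed (0.316% of all tested genes), and 2 had an unadjusted p of 0.05 or less, as did 513 of 12030 tested genes. Inflamed against steady state in KO, 1 of 23 rose and 4 fell (9.47% of all tested genes passed, 3.06% lower). Among them were Cr2, C6 and Fcna, which in KO reached 1 TPM only in the group where they were high and were tested through it alone. In WT 1 of 21 rose and 1 fell (3.96% of all tested genes passed, 1.97% lower). The gene that fell, Fcna, was likewise tested through steady state alone. Without WT inflamed library 2, 1 of 3 tested genes of the alternative and terminal pathway also fell in WT (355 of 11936 over all genes). Of the genes that fell, Colec11 and Fcna initiate the lectin pathway. Colec11, a collectin that recognises sugars, fell in KO by 2.05 (adjusted p = 5.62e-05), with 8.96, 4.48, 14.2 and 7.48 TPM in KO inflamed, against 38.5, 36.0, 35.6 and 37.2 TPM in KO steady state. In WT it had 18.3, 13.7, 23.1 and 13 TPM in WT inflamed, against 33.3, 27.5, 24.0 and 28.9 TPM in WT steady state, a difference of -0.73 that did not pass (adjusted p = 0.11). Its libraries did not overlap in either genotype, and the interaction (-1.31) did not pass either (adjusted p = 0.668).

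Fcna, a ficolin of the lectin pathway, fell in both genotypes, by 1.96 in KO and by 1.66 in WT (adjusted p = 0.000397 and 0.0388). The call in WT held in 7 of the 14 alternatives in which Fcna was tested. Fcna was near the detection limit after OVA, at 0.574 TPM or less in KO inflamed and 0.479 TPM or less in WT inflamed, against 1.61 to 6.83 TPM in KO steady state and 1.63 to 8.34 TPM in WT steady state. It reached 1 TPM only at steady state and was tested through those libraries alone, so these p-values are not read as support. Of the C1 proteases, C1ra had 263 to 290 TPM in KO inflamed, against 204 to 232 TPM in KO steady state, and C1s1 had 40.2 to 54.4 TPM in KO inflamed, against 44.0 to 55.1 TPM in KO steady state. Neither passed.

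Among soluble regulators, Vtn (vitronectin), which inhibits the terminal complex, fell in KO by 1.24, with 3.78 to 14.3 TPM in KO inflamed, against 16 to 22.7 TPM in KO steady state (adjusted p = 0.00438, or a difference of -0.93 without KO inflamed library 3). In WT it had 17.1, 5.98, 1.69 and 17.9 TPM in WT inflamed, against 28.3, 24.3, 27.8 and 12.8 TPM in WT steady state, groups that overlapped with a difference of -1.38 that did not pass (adjusted p = 0.274). Clu (clusterin), another inhibitor of the terminal complex, was the most abundant complement gene of all, at 10043 to 12041 TPM in KO inflamed, against 13629 to 15039 TPM in KO steady state, and it did not pass. C6, a terminal component, fell by 1.38 in KO (adjusted p = 0.000102) at low levels, with 0.247 TPM or less in KO inflamed, against 1.34 to 2.96 TPM in KO steady state. Within KO, C6 reached 1 TPM only at steady state and was tested through those libraries alone, so this p-value is not read as support. It was too low to be tested in WT.

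Among receptors, Cr2, the receptor for C3 fragments that is typical of B cells and follicular dendritic cells, rose in KO by 1.16 (adjusted p = 0.00434), with 2.10, 1.95, 1.40 and 5.41 TPM in KO inflamed, against 0.189, 0.758, 0.519 and 0.766 TPM in KO steady state. Within KO, Cr2 reached 1 TPM only in inflamed libraries and was tested through those alone, so this p-value is not read as support. It was too low to be tested in WT. The summed level of 7 B cell markers was 63.6 to 75.7 TPM in KO inflamed, against 116 to 131 TPM in KO steady state. C5ar1, the C5a receptor, rose in WT by 1.10 (adjusted p = 0.0253), with 2.63, 3.80, 3.47 and 2.47 TPM in WT inflamed, against 0.455, 1.04, 1.62 and 0.643 TPM in WT steady state, and the call held in 7 of 18 alternatives. In KO it had 1.87 to 4.21 TPM in KO inflamed, against 1.21 to 3.77 TPM in KO steady state, and its interaction did not pass (adjusted p = 0.668). The C3a receptor C3ar1 reached at most 0.363 TPM, factor D (Cfd) 1.24 TPM, factor I (Cfi) 1.55 TPM and the cofactor Cd46 2.15 TPM in any library, whereas Cr1l, the rodent membrane cofactor Crry, had 537 to 578 TPM in KO inflamed, against 411 to 425 TPM in KO steady state, without passing.

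**Figure D5:**
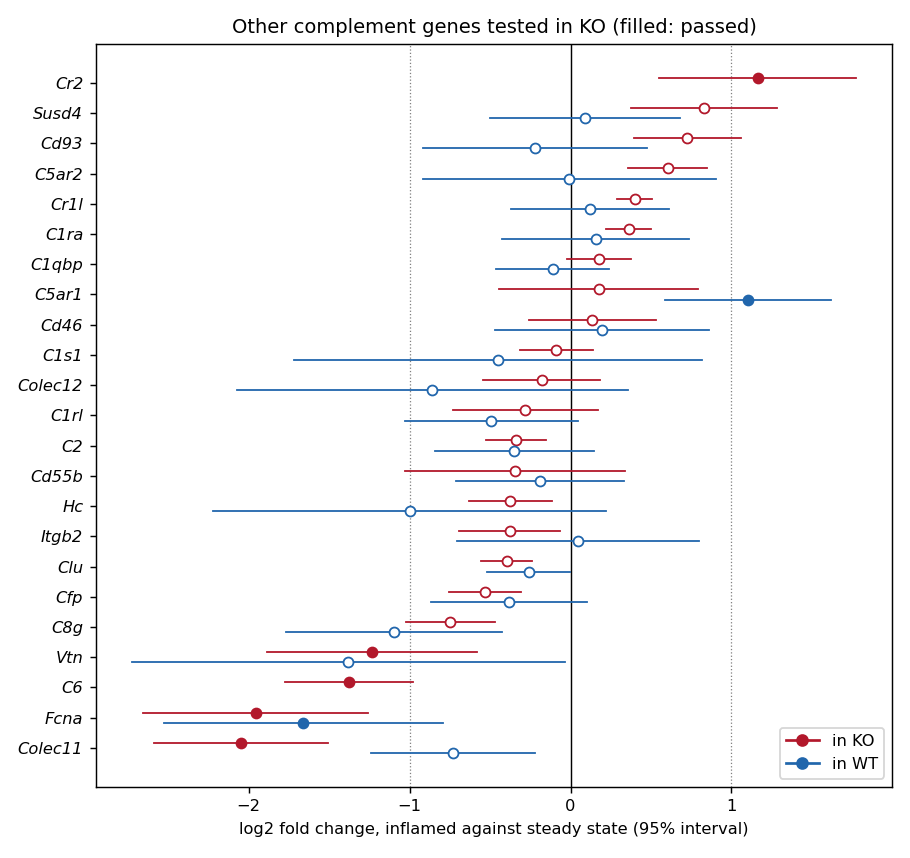
Log2 difference (horizontal axis, with 95% intervals) inflamed against steady state for the 23 other complement genes tested in KO, with KO drawn above WT on each row; filled points passed both thresholds and dotted lines mark -1 and 1. Colec11, Fcna, C6 and Vtn passed as lower and Cr2 as higher in KO, and Fcna (lower) and C5ar1 (higher) passed in WT. Cr2, C6 and Fcna in KO, and Fcna in WT, reached 1 TPM only in the group where they were high.

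Across the 16 libraries, the genes whose log2 profile was most like that of C1qa, among 9169 genes with a mean of 5 TPM or more, were Folr2 (Pearson r = 0.984), Bpifb2 (0.975), C1qc (0.973) and Bpifb3 (0.968). For C1qb they were Aif1 (0.890), Selenbp1 (0.889), Naxd (0.875) and Ndufb4c (0.870), and the correlation of C1qb with C1qa was 0.806. For Serping1 they were Serpina3i (0.937), H2-T22 (0.936), Myd88 (0.934) and H2-T9 (0.922), and for Cd59a Sult1a1 (0.966), Pithd1 (0.961), Blnk (0.942) and 1810010H24Rik (0.941). The genes most like Cfb (Lztr1, 0.965) and C3 (H6pd, 0.961) rested in part on WT inflamed library 2, without which these values were 0.822 and 0.846. For Cd55 the nearest gene was Arhgap5 (0.984, or 0.967 without that library) and for C4b Klhl25 (0.878, or 0.739 without it). These correlations describe libraries that fall into inflamed and steady-state sets and share the scaling to a fixed total.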

How the data were processed

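RNA-seq was made by the authors from total RNA of sorted LECs (SMART-Seq v4, Nextera XT, single-end reads). The deposited TPM values were computed by the authors. The labels' processing notes name STAR 2.5.2b, Subread, limma and mm10, and the study's methods STAR with salmon. Deposited columns of fold changes and q-values in 7 comparison sheets were not used. The 3 TPM tables repeat 8 library columns, with 0 differing values. In each table, 26 of 24972 rows with gene names turned into dates were dropped. TPM keeps no read depth, so depth is unknown, and each library sums to 1000000. Libraries are replicates by label, and p-values measure the spread between them.

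Comparisons were fitted with limma 3.58.1 (R 4.3.3, eBayes with trend) on log2(TPM + 1), for genes that reached 1 TPM in 4 or more of the compared libraries, with Benjamini-Hochberg adjustment over all of them. The fitting step was tested on simulated data. On this scale the fold changes of genes at low levels are understated. Single values were also compared by two-sided exact permutation tests. Named were all 9 members, other complement genes that passed or stood on a list, and the 4 most correlated genes per member. Members, lists, motifs and tests were chosen with earlier results of these data known. Alternatives covered the pseudocount, filter, scaling, variance model, library weights, replicate block, a fit over all libraries and each library left out. Sequences and positions are from RefSeq, both on GRCm38.p6. 1 other complement gene is not reported here.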

Additional observations from a re-analysis of the deposited data

Results flagged for a closer look

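Of 36 sets of 4 values (9 genes in 4 groups), 2 held a library far from the other 3 by Dixon's ratio test at 95%, and chance alone flags about 1 in 20. Both are in WT inflamed library 2. Cd55 was 612.5 TPM there, against 1525 to 1699.9 TPM in the other WT inflamed libraries. Cd59a was 122.4 TPM there, against 134.8 to 136.4 TPM in the others.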

How the results depend on the processing

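The count of members that passed was 2 inflamed against steady state in KO and became 8 with no fold change threshold, 3 under median-ratio rescaling and under quantile normalization, where C1qb was added, and 2 to 3 with each library left out. In WT it was 2 under every other setting and 2 to 3 with each library left out, where Serping1 was added without WT inflamed library 2. It was 0 in both comparisons of KO with WT and in the interaction under all settings and with each library left out. C1qa and C1qc passed in both OVA comparisons under all 18 alternatives in KO and all 19 in WT. C5ar1 in WT passed in 7 of 18 alternatives and Fcna in WT in 7 of the 14 in which it was tested. Pairing by replicate number was not evident, with 4 of 24 same-numbered pairs correlated above 0.1 (median of -0.011), but such correlations cannot exclude a pairing or a shared batch. With the replicate block the counts of members were 2 in KO, 2 in WT and 0 elsewhere, and C5ar1 and Fcna in WT no longer passed (adjusted p = 0.0557 and 0.059). Over all genes, 1152 passed in KO (780 higher and 372 lower), against 418 higher and 599 lower under median-ratio rescaling. In WT 476 passed (239 higher and 237 lower), against 351 higher and 215 lower under median-ratio rescaling, and against 1052 without WT inflamed library 2. Over other settings the counts of all genes were 539 to 7330 in KO, 262 to 1085 in WT, 45 to 218 for KO against WT at steady state (99 as reported) and 19 to 89 in inflamed mice (38 as reported, 23 higher and 15 lower, or 19 higher and 22 lower under quantile normalization). With each library left out they were 1005 to 1240 in KO, 207 (without WT steady-state library 1) to 1052 in WT, 74 to 89 at steady state and 9 (without KO inflamed library 1) to 78 (without WT inflamed library 2) in inflamed mice. No called direction reversed. The C1qb to C1qa log2 shift, with alternatives added after the data were seen, was 1.61 in KO and 2.17 in WT with 1 TPM added, and 1.58 to 2.20 in KO and 2.40 to 2.77 in WT with each library left out. The cause of these changes was not tested. With 4 libraries a group and unknown depth, small differences in WT inflamed were not detectable.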
